A study of Mus musculus with 15 samples.

Results

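The mitochondrial genome transcripts comprised every gene whose GENCODE vM21 symbol begins with mt-, 37 of the 55401 gene identifiers in the count files. They were 13 protein-coding genes, 2 rRNA genes and 22 tRNA genes, all on chrM of GRCm38 (the mm10 build). The libraries were made from oocytes of Kunming mice, 6 oocytes to a library, amplified with SMART-Seq2, which primes cDNA at poly(A) tails and does not keep the strand. The 5 groups held 3 libraries each: oocytes of follicles grown in the animal (IVV, replicates 2 to 4), oocytes of preantral follicles cultured for 10 days without neurotrophin-4 (IVG) or with it (IVG-NT), and oocytes of follicles cultured for 6 days without it (IVG day 6) or with it (IVG-NT day 6). The series text gave the mice as 12 to 14 days old, with no separate age for IVV, and the methods of the study traced the 3 libraries of a group to independent experiments.

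Mitochondrial DNA is a small circle that is read from both strands as long precursor RNAs. In most places a tRNA lies between neighbouring genes, and cutting the tRNAs out frees the mRNAs and rRNAs. Most of these then receive a poly(A) tail in the organelle. The mRNAs encode core subunits of the respiratory chain and ATP synthase, the rRNAs build the mitochondrial ribosome, and the growing oocyte is known for multiplying its mitochondria and their DNA many times over.

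Depth ran from 5954262 to 55593251 counts per library, with IVG-NT day 6 replicates 1 and 2 lowest at 5954262 and 7125348. The libraries fell into 2 kinds by the share of counts on a nuclear rRNA gene, CT010467.1: 9 libraries had 12.5% to 37.9% (called rRNA-rich here) and 6 had 0.187% to 0.714% (rRNA-poor). IVV replicate 3 and replicates 1 and 2 of every culture group were rRNA-rich, so each culture group held 2 of one kind and 1 of the other, and IVV the reverse. All 13 oocyte markers had counts in every library, at 11827 to 30351 summed CPM (counts scaled to a common library size), against 59.98 to 405 for 12 granulosa cell markers, 0.509 to 79.3 for 8 theca and stroma markers and 4.07 to 78.9 for 8 macrophage markers. Of the 12 granulosa markers, 11 to 12 had counts in IVV, 9 to 11 in IVG and 10 to 11 in IVG-NT. In IVG day 6, 9 to 11 had counts, and in IVG-NT day 6, 4 to 9. The marker most often at 0 was the granulosa hormone gene Amh, in 13 of the 15 libraries. No library repeated another. The part of the kind of library or of other cells in the results below was not tested unless a value is given.

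The sequences of a few members carry the patterns described below, and are given 5′ to 3′ on the gene's own strand from the GENCODE vM21 transcripts. The first set holds the 20 bases richest in A (capitals) with up to 20 bases on each side, for both rRNA genes, whose ratio to each other did not overlap between the kinds of library, and for mt-Nd6, the mRNA gene poorest in A. They lie at chrM:1468-1527 and chrM:705-764 on the plus strand and chrM:13810-13869 on the minus strand.
mt-Rnr2: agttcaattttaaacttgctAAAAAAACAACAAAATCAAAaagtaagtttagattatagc
mt-Rnr1: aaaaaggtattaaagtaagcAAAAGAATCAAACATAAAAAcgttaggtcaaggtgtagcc
mt-Nd6: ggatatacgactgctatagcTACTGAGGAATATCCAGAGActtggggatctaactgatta
mt-Rnr2 held 16 A in its window and mt-Rnr1 15, the highest of the 15 rRNA and mRNA genes, and mt-Nd6 held 8, the lowest.

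The second set holds the 3 adjoining tRNA genes between mt-Nd4 and mt-Nd5, which together held 20.7% to 41.1% of tRNA gene counts in 3 day 6 libraries and 1 of IVV, at chrM:11546-11612, chrM:11613-11671 and chrM:11671-11741 on the plus strand. The last base of mt-Ts2 is also the first of mt-Tl2. mt-Tl1, at chrM:2676-2750 between mt-Rnr2 and mt-Nd1, is shown because it had the highest median count of the tRNA genes.
mt-Th: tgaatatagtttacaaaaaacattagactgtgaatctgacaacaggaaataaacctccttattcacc
mt-Ts2: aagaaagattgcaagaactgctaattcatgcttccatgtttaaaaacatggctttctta
mt-Tl2: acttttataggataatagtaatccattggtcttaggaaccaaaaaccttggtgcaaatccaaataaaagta
mt-Tl1: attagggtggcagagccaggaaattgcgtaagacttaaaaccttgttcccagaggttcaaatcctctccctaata
Their products are the tRNAs for histidine (mt-Th), serine (mt-Ts2) and leucine (mt-Tl2 and mt-Tl1).

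The third set shows the last 30 bases of mt-Co3, mt-Nd4 and mt-Cytb, whose annotated genes end 1 base past the last whole codon. That base, a T in capitals, starts a stop codon that the poly(A) tail completes, as is known for these mRNAs. They lie at chrM:9361-9390, chrM:11515-11544 and chrM:15259-15288 on the plus strand.
mt-Co3: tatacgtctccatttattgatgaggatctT
mt-Nd4: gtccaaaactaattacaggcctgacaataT
mt-Cytb: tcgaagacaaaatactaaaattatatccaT
The other 10 mRNA genes were annotated to whole codons.

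Members took 0.568% to 1.74% of all counts in a library. Their share was 0.825, 0.861 and 0.925% in IVV, 1.05, 1.11 and 0.612% in IVG, 1.12, 1.23 and 0.738% in IVG-NT, 1.74, 1.27 and 1.61% in IVG day 6 and 1.72, 1.70 and 0.568% in IVG-NT day 6, in order of replicate number. The 3 IVG day 6 libraries lay above all 3 of IVG and all 3 of IVV, while IVG-NT day 6 held both some of the highest shares and the lowest. The rRNA genes gave 0.214% to 1.02% of all counts, the mRNA genes 0.128% to 1.01%, and the tRNA genes 0.00146% to 0.0904%. As a share of the counts on protein-coding genes, the mRNAs of the organelle stood at 0.580, 0.306 and 0.592% in IVV, 0.159, 0.271 and 0.290% in IVG, 0.350, 0.304 and 0.388% in IVG-NT, 0.906, 0.687 and 0.902% in IVG day 6 and 1.42, 1.56 and 0.370% in IVG-NT day 6. On that scale, by member counts alone, every IVG library was below every library of IVV, IVG-NT and IVG day 6. The nuclear copies described below held 10.3% of member and copy counts in IVG replicate 3. They held 2.43% in IVV replicate 3 and 2.30% in IVG-NT replicate 2, so with them added this separation may not hold. As a share of all counts, the mRNAs of IVG overlapped those of IVV and IVG-NT. IVG replicate 3 was at 0.272% there, against 0.180% in IVV replicate 3 and 0.229% in IVG-NT replicate 2. With the nuclear copies described below added, those libraries stood at 0.295, 0.183 and 0.232%. These shares are descriptions with no test. They are relative to the other RNA of a library, so a lower share need not mean less mitochondrial RNA in an oocyte. In pooled oocytes fewer mitochondria, less RNA per mitochondrion and more of other RNA cannot be told apart.

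**Figure D1:**
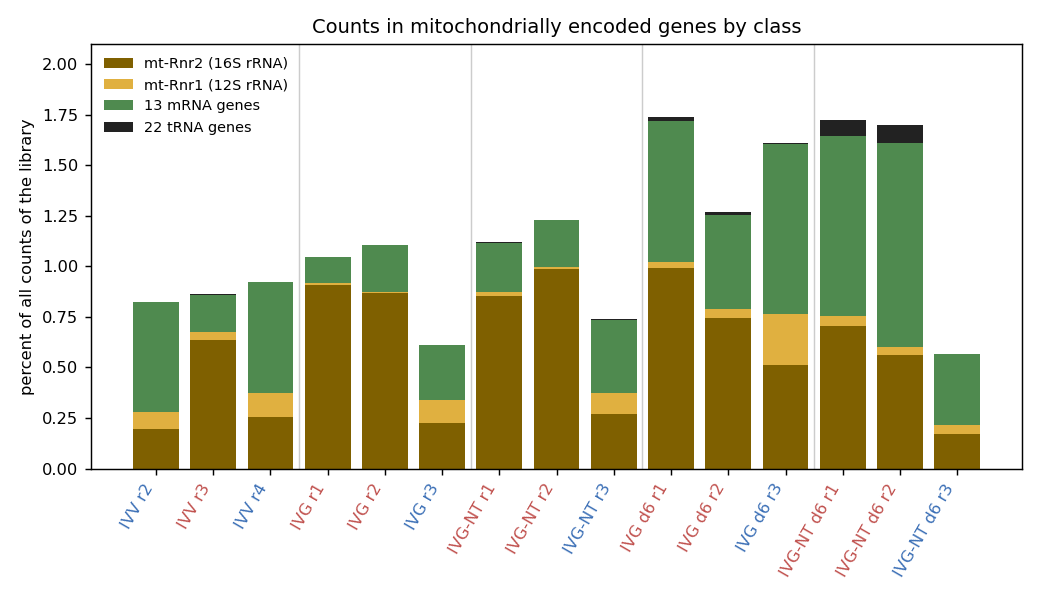
Stacked bars give the percent of all counts in each library that fell on mt-Rnr2, mt-Rnr1, the 13 mRNA genes and the 22 tRNA genes; red library names mark rRNA-rich and blue names rRNA-poor libraries, and d6 and r stand for day 6 and replicate. IVG day 6 libraries reach 1.27% to 1.74%, and mt-Rnr1 is a thin band in every red-named library.

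mt-Rnr2, the large ribosomal RNA of the mitochondrial ribosome, was the most abundant member per kilobase of gene in all 15 libraries. Its level in normalized CPM (CPM on library sizes scaled by TMM) was 1737, 7352 and 2274 in IVV, 10033, 8535 and 1801 in IVG, 10203, 11323 and 2430.3 in IVG-NT, 10244, 9073 and 4199 in IVG day 6 and 7603, 6991 and 1389.7 in IVG-NT day 6. The rRNA-rich libraries, at 6991 to 11323, did not overlap the rRNA-poor ones, at 1390 to 4199, whatever their group. mt-Rnr1, the small ribosomal RNA, gave 787, 449 and 1022 in IVV, 78.3, 96.0 and 911 in IVG, 249.6, 123 and 934 in IVG-NT, 316, 536 and 2038 in IVG day 6 and 524, 472 and 369 in IVG-NT day 6. Its order was the other way, with a median of 316 in rRNA-rich and 923 in rRNA-poor libraries, although their ranges overlapped. The ratio of mt-Rnr2 to mt-Rnr1 counts was therefore 1.98 to 3.77 in the rRNA-poor libraries and 14.5 to 128 in the rRNA-rich ones. Neither rRNA gene was called in any comparison of groups. The fitted log2 fold change of mt-Rnr2, ± its standard error, was 0.84 ± 0.79 for IVG against IVV, 1.08 ± 0.79 for IVG-NT against IVV, 0.23 ± 0.78 for IVG-NT against IVG, -0.56 ± 0.78 for IVG-NT day 6 against IVG day 6, -0.21 ± 0.78 for IVG against IVG day 6 and 0.58 ± 0.78 for IVG-NT against IVG-NT day 6.

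The kinds of library parted the mRNA genes less sharply. By median CPM of all counts, the ratio of rRNA-rich to rRNA-poor libraries was 3.54 for mt-Rnr2, 2.503 for mt-Nd5 and 1.51 for mt-Nd4l, and below 1 for the other 12 rRNA and mRNA genes, down to 0.144 for mt-Co2. Of these 12, only mt-Cytb, mt-Nd3 and mt-Nd4 had the higher median in the rRNA-rich libraries in normalized CPM. Their medians were 521 against 447, 23.7 against 20.4 and 310 against 268. Beside the windows shown above, mt-Rnr2, with 16 A in its richest 20 bases, had this ratio of 3.54, mt-Rnr1, with 15, had 0.281, and mt-Nd6, with 8, had 0.401, while mt-Nd2, with a run of 8 A that was the longest of these genes, had 0.464. A relation of these ratios to A content was not tested. On the normalized scale 9 members were higher in every rRNA-rich than in every rRNA-poor library, where 2.88% of all genes tested were. They were mt-Rnr2 and 8 of the 22 tRNA genes (mt-Tc, mt-Tg, mt-Th, mt-Tk, mt-Tl1, mt-Tl2, mt-Tr and mt-Ty).

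Per kilobase of gene, the cytochrome c oxidase mRNA mt-Co1 ranked between 2nd and 8th of the 15 rRNA and mRNA genes over the libraries, and mt-Nd3 between 11th and 15th. In the rRNA-poor libraries the median levels were 1033 CPM per kilobase for mt-Co1, 999.7 for mt-Co3, 719 for mt-Co2 and 439 for mt-Cytb, with mt-Nd5 at 95.6 and mt-Nd3 at 65.3 the lowest. The 3 cytochrome c oxidase mRNAs thus led the mRNA genes there, but their ranges, 613 to 1283, 548 to 1951 and 438 to 1788, overlapped one another. In the rRNA-rich libraries mt-Co1 at 459 and mt-Cytb at 391 led, mt-Nd5 stood at 239, and mt-Atp6 was lowest at 39.7. These levels leave out counts on the nuclear copies described below. Over all libraries the copy held 9.61% to 71.2% of the pair for mt-Nd3, 0.711% to 53.4% for mt-Co3 and 0.0922% to 31.0% for mt-Co1. The order given is thus that of the member counts alone. mt-Co1 made up 23.5% to 39.8% of mitochondrial mRNA counts in rRNA-poor and 12.6% to 37.6% in rRNA-rich libraries, and mt-Nd5 3.66% to 5.55% and 8.41% to 31.0%.

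The genes mt-Co2, mt-Co3, mt-Atp6 and mt-Atp8, of cytochrome c oxidase and ATP synthase, were higher in the rRNA-poor than in the rRNA-rich libraries of IVV, IVG, IVG-NT and IVG day 6, and lower in IVG-NT day 6. mt-Co2 stood at 495, 129.8 and 459 normalized CPM in IVV, 44.5, 55.2 and 240.4 in IVG, 73.0, 66.8 and 417 in IVG-NT, 74.2, 86.2 and 1000.4 in IVG day 6 and 539, 879.9 and 255 in IVG-NT day 6. mt-Co3 stood at 711, 165 and 695 in IVV, 176, 311 and 366 in IVG, 239.6, 258 and 703 in IVG-NT, 295, 242 and 1251 in IVG day 6 and 913, 1931 and 353 in IVG-NT day 6. Replicate 3 was the highest library of IVG, IVG-NT and IVG day 6 for both genes and the lowest of IVG-NT day 6. mt-Atp6 stood at 152, 23.7 and 129 in IVV, 15.7, 26.6 and 54.8 in IVG, 25.5, 27.6 and 139 in IVG-NT, 29.5, 33.4 and 270.4 in IVG day 6 and 163, 221 and 92.9 in IVG-NT day 6. mt-Atp8, which overlaps mt-Atp6 by 43 bases, stood at 92.8, 21.8 and 64.0 in IVV and 13.8, 20.5 and 25.3 in IVG, with the other groups given below. Both ATP synthase genes were lowest in rRNA-rich libraries of IVG or IVG day 6.

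**Figure D2:**
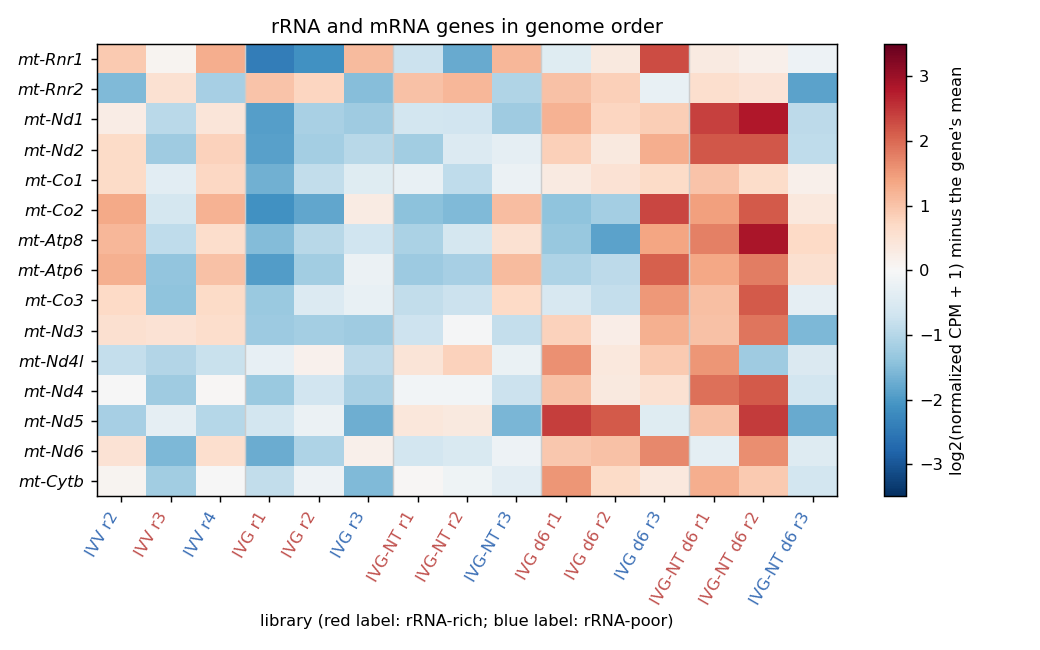
Colours give log2(normalized CPM + 1) of each rRNA and mRNA gene (rows, in genome order) minus that gene's mean over the 15 libraries (columns; red names rRNA-rich, blue names rRNA-poor). mt-Rnr2 is red in every rRNA-rich library, and most mRNA genes are blue in the 3 IVG libraries and red in the 3 IVG day 6 libraries.

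For 7 mRNA genes, reads could be assigned either to the member or to a near-identical nuclear copy. Unprocessed pseudogenes on the minus strand of chromosome 1, between 24611535 and 24616197, match all but the last 1 to 3 bases of mt-Co2, mt-Atp6, mt-Co3 and mt-Nd4l and the first 876 bases of mt-Nd4 without a mismatch, and mt-Nd3 (again short of its last 3 bases) and the last 483 bases of mt-Co1 with 1 mismatch each. Together the copies held 0.617% to 39.9% of the counts of members and copies: 34.3, 2.43 and 39.9% in IVV, 3.07, 3.94 and 10.3% in IVG, 5.83, 2.30 and 11.9% in IVG-NT, 27.5, 26.3 and 2.96% in IVG day 6 and 26.1, 9.98 and 0.617% in IVG-NT day 6. IVV replicates 2 and 4, the first 2 libraries of IVG day 6 and IVG-NT day 6 replicate 1 were high. The 6 day 10 culture libraries stayed at or below 11.9%. mt-Atp6, a subunit of the proton channel of ATP synthase, had the widest range: its copy Gm10925 took 71.8, 9.91 and 76.6% in IVV, 16.5, 9.69 and 31.8% in IVG, 34.3, 2.63 and 16.2% in IVG-NT, 84.4, 77.1 and 9.97% in IVG day 6 and 69.8, 23.5 and 2.90% in IVG-NT day 6. The copy of mt-Nd3, Gm28438, held 9.61% to 71.2% of the pair, and that of mt-Nd4, Gm28439, 0.178% to 27.8%. Among annotated transcripts, the other 6 mRNA genes and both rRNA genes had no copy of at least 99% identity over 200 bases. Nuclear sequence between the annotated copies was not searched. On chrM, mt-Atp8 and several tRNA genes, mt-Ts1 among them, lie between members with such copies, so an unannotated copy of them is not excluded. Summed values are given below where summing member and copy adds a call or brings groups of a described gene to overlap.

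**Figure D3:**
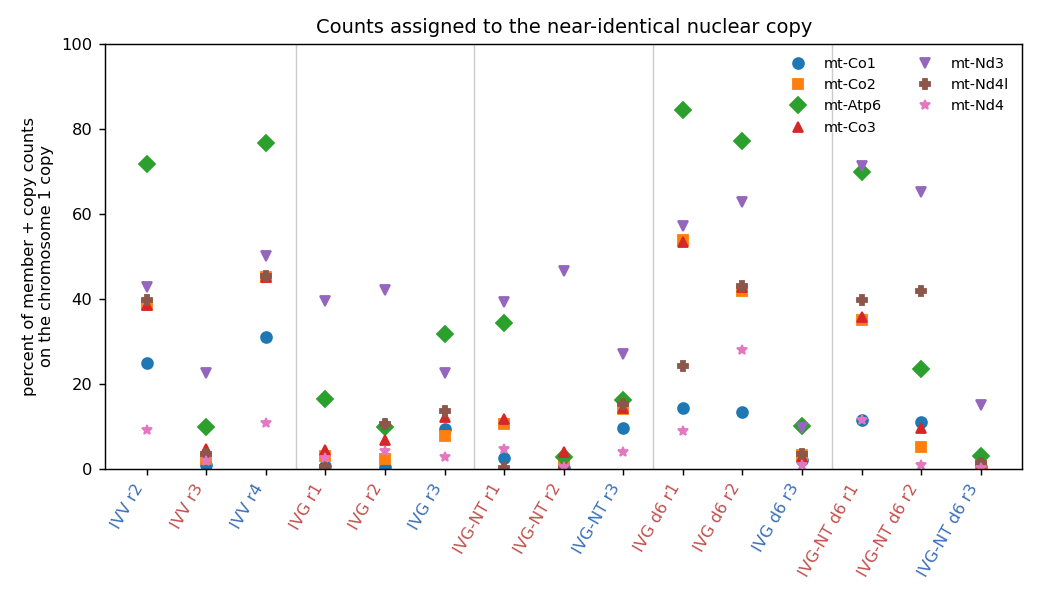
Points give, for each of the 7 mRNA genes with a near-identical chromosome 1 copy, the percent of member plus copy counts that was assigned to the copy in each library (red names rRNA-rich, blue names rRNA-poor). mt-Atp6 reaches 84.4% in IVG day 6 replicate 1 and is at 2.63% in IVG-NT replicate 2.

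The change over the culture without NT-4 was asked by setting IVG at day 10 against IVG day 6. All 13 mRNA genes had a fitted log2 fold change below 0, with a median of -1.77 against 0.05 over all 21009 genes tested. A gene was called at an absolute log2 fold change above 1 and an unadjusted p below 0.05 in edgeR's quasi-likelihood test, the threshold of the study. Log2 fold changes, above and below, are given ± a standard error. It was taken as the absolute log2 fold change divided by the square root of the test's F statistic. By that rule 12 of the 37 members were lower at day 10 and none higher, 8 mRNA and 4 tRNA genes, where 1.21% of all genes tested were called lower. After Benjamini-Hochberg adjustment no member passed, the smallest adjusted p of edgeR's quasi-likelihood test being 1, with 12 members at an unadjusted p below 0.05, and DESeq2 passed none.

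Of the 7 mRNAs for subunits of complex I (NADH dehydrogenase), which takes electrons from NADH, 6 were called. mt-Nd1 stood at 75.2, 130.1 and 119.7 normalized CPM in the IVG libraries and 675, 486 and 519 in those of IVG day 6, a log2 fold change of -2.37 ± 0.75. mt-Nd2 stood at 42.3, 69.8 and 81.9 in IVG and 287, 206 and 389 in IVG day 6, with -2.19 ± 0.78. The groups did not overlap for either gene, and neither has a near-identical copy among annotated transcripts. For comparisons of groups, here and below, the share of all genes without overlap is not given. A lack of overlap therefore only describes the libraries. mt-Nd3 stood at 7.69, 8.19 and 7.90 in IVG and 35.5, 23.7 and 48.7 in IVG day 6, with -2.18 ± 0.90. mt-Nd4 stood at 133, 205 and 149.6 and 669, 419 and 480.0, with -1.68 ± 0.67. Both were lower in every IVG library. mt-Nd5, the longest mRNA gene, stood at 253, 344 and 121 in IVG and 2116, 1768 and 294 in IVG day 6, with -2.54 ± 0.93. Its groups overlapped, since the rRNA-poor replicate 3 was low in each. mt-Nd6, the only mRNA gene on the minus strand, stood at 15.2, 24.9 and 60.3 and 103, 110.2 and 173, with -1.94 ± 0.83 and no overlap. It shares 14 bases with mt-Nd5, and without strand its reads cannot be told from antisense RNA. mt-Nd4l was not called, at -1.36 ± 0.78, although its levels of 40.1, 54.8 and 25.4 and 152, 63.5 and 93.7 did not overlap.

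mt-Cytb, the mitochondrially encoded subunit of complex III, stood at 277, 441 and 172 normalized CPM in IVG and 1476, 802 and 651 in IVG day 6, a log2 fold change of -1.72 ± 0.64. mt-Co1, the catalytic subunit of complex IV (cytochrome c oxidase), stood at 314, 554 and 760.4 and 1272, 1451 and 1622, with -1.42 ± 0.53. Neither gene's groups overlapped. The other 2 complex IV mRNAs did not pass, with -1.77 ± 1.06 for mt-Co2 and -1.07 ± 0.81 for mt-Co3, nor did those of ATP synthase, with -1.19 ± 0.93 for mt-Atp8 and -1.78 ± 1.01 for mt-Atp6. In mt-Co2 and mt-Atp6 the rRNA-poor replicate 3 was the high library of both groups. With the copies summed, mt-Atp6 moved from -1.78 to -2.30 and was called, the only addition to the 12, and the groups of mt-Atp6 and mt-Co3 were then apart.

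The lower mRNA levels at day 10 were seen in both kinds of library. Among rRNA-rich libraries, 2 a group, 12 of the 13 mRNA genes were lower at day 10 (median log2 ratio of mean normalized CPM -1.67), mt-Atp8 being the exception at 0.37, and between the lone rRNA-poor libraries all 13 were (median -1.92, from -2.62 for mt-Nd3 to -1.09 for mt-Co1). Over 16 other settings and left-out libraries the median of the 13 stayed between -2.18 and -1.55. The number of calls was less steady: leaving out 1 library gave 3 members (IVG replicate 1), 7 (IVG replicate 2), 6 (IVG replicate 3) or 5 (IVG day 6 replicate 1). For fits with libraries left out, here and below, the share of all genes called is not given. The replicate numbers, which also follow the kind of library, were taken to pair these groups, and with the replicate as a block 9 members were called. Summed granulosa markers were 92.7 to 405 CPM in IVG and 66.0 to 133 in IVG day 6, and macrophage markers 6.39 to 62.9 and 19.6 to 78.9.

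**Figure D4:**
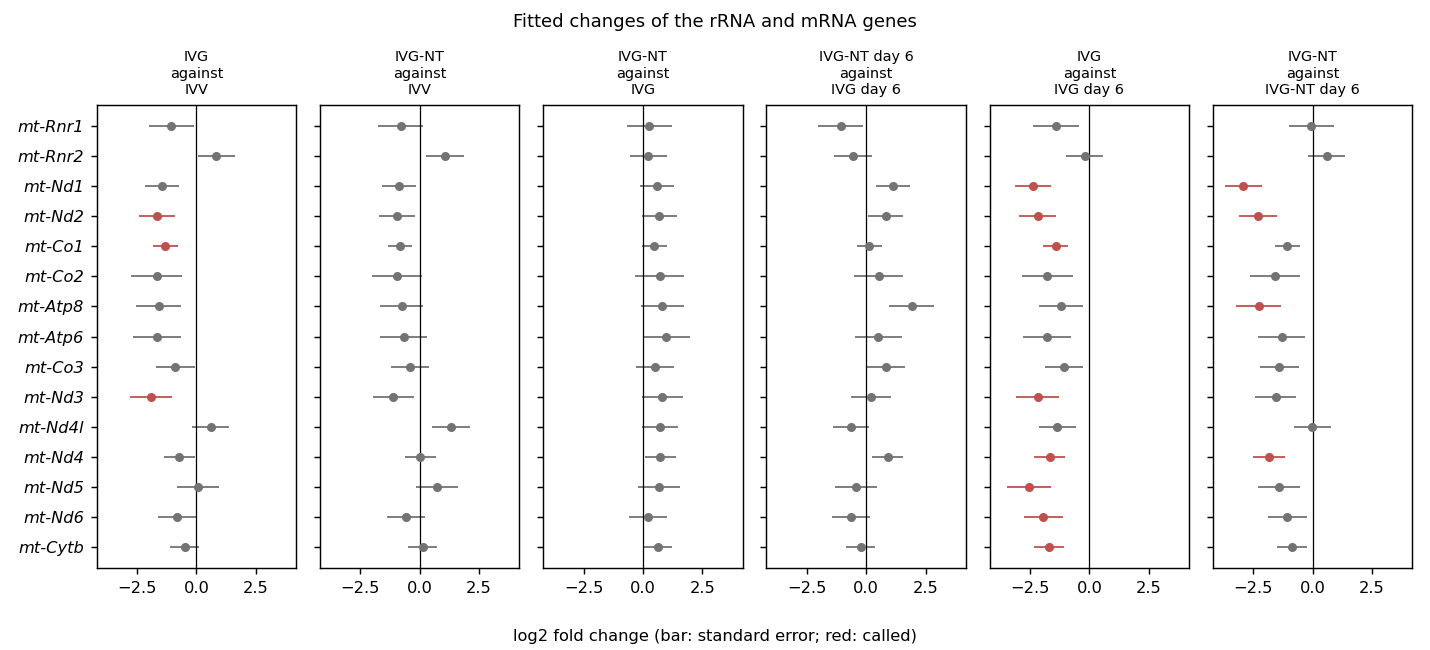
Points give the fitted log2 fold change of each rRNA and mRNA gene in the 6 comparisons, bars its standard error on each side, and red points the genes called. In IVG against IVG day 6 all 15 points lie below 0 and 8 are red, and in IVG-NT against IVG all lie above 0 and none is red.

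The day 10 groups were then set against IVV, all at the germinal vesicle stage by the methods of the study. The IVV oocytes came from puncture of antral follicles, in mice with no separate age given. IVV also held the kinds of library in the reverse proportion. The part of culture alone was not tested. In IVG against IVV 11 of 13 mRNA genes lay below 0, with a median log2 fold change of -1.31 against -0.20 over all genes tested, and 3 members were called lower, where 1.91% of all genes tested were. These were mt-Nd2, mt-Co1 and mt-Nd3. mt-Co1 stood at 1604, 782 and 1664 normalized CPM in IVV against the IVG values above, a log2 fold change of -1.31 ± 0.53. mt-Nd3 stood at 30.01, 28.9 and 31.4 in IVV, with -1.93 ± 0.89. The groups were apart for these 2 genes. With its copy summed mt-Co1 moved from -1.31 to -1.64 and was still called, but its groups overlapped, at 838 normalized CPM in IVG replicate 3 and 788 in IVV replicate 3. mt-Nd2 stood at 259, 67.4 and 284 in IVV, with -1.65 ± 0.77, and overlapped through the rRNA-rich IVV replicate 3. mt-Nd1 was lower in every IVG than every IVV library (344, 150.0 and 385 in IVV) but missed the threshold, at -1.44 ± 0.73. mt-Nd4, mt-Nd5, mt-Nd6 and mt-Cytb were not called: mt-Nd4 stood at 326, 138 and 337 in IVV, mt-Nd5 at 177, 316 and 196, mt-Nd6 at 76.0, 17.3 and 81.5 and mt-Cytb at 539, 214 and 502, and each overlapped IVG. mt-Nd4l and mt-Nd5 were the mRNA genes above 0, at 0.60 ± 0.77 and 0.06 ± 0.88. The smallest adjusted p of edgeR's quasi-likelihood test was 1, 3 members were at an unadjusted p below 0.05, and DESeq2 passed none after adjustment.

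Summing the nuclear copies changed the comparison with IVV most. The log2 fold change of mt-Atp6 in IVG against IVV moved from -1.65 to -3.12 and that of mt-Co2 from -1.67 to -2.29, which brought the calls to 5. The kinds of library gave different values here: between rRNA-poor libraries, 1 of IVG and 2 of IVV, all 13 mRNA genes were lower in IVG (median log2 ratio -1.15), while between rRNA-rich libraries, 2 of IVG and 1 of IVV, 8 were (median -0.16). The 3 calls were lost without IVV replicate 2, IVV replicate 4, IVG replicate 1 or IVG replicate 2, each leaving 0, and with the replicate as a block.

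In IVG-NT against IVV no member was called, where 3.29% of all genes tested were called in either direction. No member was at an unadjusted p below 0.05 by edgeR, and DESeq2 called 1 before and 0 after adjustment. The median of the mRNA genes was -0.67, with 9 of 13 below 0, against -0.19 over all genes. The lowest mRNA gene was mt-Nd3, at 11.7, 19.5 and 10.7 normalized CPM in IVG-NT, with -1.11 ± 0.87, and the highest was mt-Nd4l, with 1.32 ± 0.78. Neither overlapped between the groups: mt-Nd4l stood at 27.3, 23.5 and 28.4 in IVV and 67.9, 87.7 and 42.2 in IVG-NT. With the copy of mt-Nd4l summed its value moved from 1.32 to 0.76 and its groups overlapped, at 24.4 to 52.0 normalized CPM in IVV and 49.7 to 87.7 in IVG-NT. The lowest member was mt-Ts2, whose counts were 1, 67 and 6 in IVV and 2, 2 and 1 in IVG-NT, and the highest mt-Tg, with 1.58 ± 1.78. With the copies summed mt-Atp6 moved from -0.67 to -2.26 and was called. Without IVV replicate 2 the count was 1, and without IVV replicate 3 it was 2. The median changed sign between the kinds of library, with a log2 ratio of -0.52 between rRNA-poor and 0.45 between rRNA-rich libraries.

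NT-4 at day 10 was asked by setting IVG-NT against IVG. All 13 mRNA genes had higher fitted levels with NT-4, with a median log2 fold change of 0.69 against 0.01 over all genes tested, but no member was called, where 1.24% of all genes tested were called in either direction, and none was at an unadjusted p below 0.05. DESeq2 called none either. The values ran from 0.23 ± 0.80 for mt-Nd6 to 0.98 ± 0.99 for mt-Atp6 among the mRNA genes, and the lowest and highest members were mt-Ts2, with counts of 2, 2 and 8 in IVG and 2, 2 and 1 in IVG-NT, and mt-Tg, at 1.30 ± 1.75. mt-Nd3 was the only mRNA gene without overlap, at 11.7, 19.5 and 10.7 normalized CPM in IVG-NT and 7.69, 8.19 and 7.90 in IVG. The share of all genes without overlap is not given for this comparison. mt-Cytb stood at 521, 454 and 392 in IVG-NT, with 0.62 ± 0.62. mt-Co1 stood at 849, 549.9 and 875, mt-Nd5 at 522, 498 and 130.4 and mt-Nd6 at 34.0, 36.7 and 46.9, each overlapping the IVG values above. The standard errors of the mRNA genes were of the size of the differences, and no interval of 2 standard errors around them left out 0. The median was 0.71 between rRNA-rich libraries, where 13 of 13 were above 0, and 0.66 between rRNA-poor ones, where 12 of 13 were, and it stayed between 0.51 and 0.84 over 16 other settings. The replicate numbers, which also follow the kind of library, were taken to pair these groups, and with the replicate as a block 0 members were called. Without IVG replicate 3 the count was 1.

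The 3 NT-4 libraries of day 6 differed widely. In IVG-NT day 6 against IVG day 6, 9 members were called higher, where 6.74% of all genes tested were, and all 9 were tRNA genes. No adjusted p of edgeR's quasi-likelihood test was under 0.381, while DESeq2 passed 8 tRNA genes, all higher, after adjustment, where 2.82% of all genes to which it gave an adjusted p passed as higher. The groups overlapped for all 9: replicates 1 and 2 of IVG-NT day 6 lay above every IVG day 6 library, and replicate 3 did not. mt-Th had 847, 1105 and 5 counts in IVG-NT day 6 and 68, 322 and 31 in IVG day 6, with 4.15 ± 1.82. mt-Ti, the isoleucine tRNA gene beside mt-Nd1, had 645, 984 and 60 counts and 376, 255 and 251, with 3.25 ± 1.28. Replicates 1 and 2 of IVG-NT day 6 were high and replicate 3 low in both genes, in libraries of 5954262, 7125348 and 50336973 counts. mt-Ts1, a serine tRNA gene on the minus strand, had 87, 97 and 6 counts and 6, 6 and 4, with 5.81 ± 1.93, the highest of the members. The other called genes were mt-Tf at 5.15 ± 2.03, mt-Tm at 2.54 ± 1.12, mt-Td at 4.86 ± 1.80, mt-Tk at 5.14 ± 1.74, mt-Tt at 2.95 ± 1.40 and mt-Tp at 4.15 ± 1.53. All 9 had a log2 fold change below 0 when replicates 1 and 2 of IVG-NT day 6 were left out, and 4 members were then called, all lower.

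Most mRNA genes were high in the same 2 libraries. mt-Nd1 stood at 1520.4, 1999 and 153 normalized CPM in IVG-NT day 6, against the IVG day 6 values above, with 1.13 ± 0.72. mt-Atp8 stood at 141, 303 and 67.0 in IVG-NT day 6 and 15.9, 10.6 and 109 in IVG day 6, with 1.91 ± 0.95, the highest mRNA value. Of the genes with the same 2 libraries high, mt-Nd3 stood at 41.9, 75.9 and 6.13 in IVG-NT day 6, mt-Nd5 at 804, 2165 and 116 and mt-Cytb at 1223, 955 and 323. mt-Nd4l was at 145, 20.2 and 34.1, and mt-Nd6, the lowest mRNA value at -0.64 ± 0.80, at 42.1, 166 and 39.0. The median of the 13 was 0.52 against -0.27 over all genes tested. Between rRNA-rich libraries 9 of 13 mRNA genes were higher with NT-4 (median log2 ratio 1.32), and between the rRNA-poor libraries all 13 were lower (median -1.54), so the direction differed by kind of library. mt-Tv, the tRNA gene between the rRNA genes, was the lowest member, with 0, 1 and 6 counts in IVG-NT day 6 and 68, 19 and 19 in IVG day 6, with -3.70 ± 1.88. The count of calls was 3 without IVG day 6 replicate 1, 5 without IVG-NT day 6 replicate 2 and 15 without IVG-NT day 6 replicate 3. Summed theca and stroma markers were 9.75 to 79.3 CPM in IVG-NT day 6 and 1.46 to 9.88 in IVG day 6, with 2 to 4 and 1 to 7 of the 8 detected. Granulosa markers were 59.98 to 129.7 and 66.0 to 133, with 4 to 9 and 9 to 11 of the 12 detected. Macrophage markers were 4.07 to 55.4 and 19.6 to 78.9, with 1 to 4 and 1 to 3 detected. Genes with a count numbered 13338, 10991 and 20283 in IVG-NT day 6 and 15483 to 22163 in IVG day 6. The part of other cells or of the number of genes detected in these values was not tested.

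Time in culture with NT-4 was asked by setting IVG-NT against IVG-NT day 6. Here 16 members were called lower at day 10, 4 mRNA and 12 tRNA genes, where 7.21% of all genes tested were called lower. All 13 mRNA genes lay below 0, with a median of -1.42 against 0.40 over all genes. The smallest adjusted p of edgeR's quasi-likelihood test among the members was 0.357, while DESeq2 passed 15 of them, all lower, where 3.22% of all genes to which it gave an adjusted p passed as lower. mt-Nd1 stood at 185, 179 and 121 in IVG-NT, with -2.92 ± 0.76, and overlapped through IVG-NT day 6 replicate 3. mt-Nd2 stood at 69.0, 115 and 129.8 in IVG-NT and 739, 729.9 and 87.4 in IVG-NT day 6, with -2.31 ± 0.78. mt-Nd4 stood at 309.9, 307 and 194 and 1256, 1458 and 210.4, with -1.85 ± 0.67. Both overlapped through the same library. With the copies summed, mt-Nd3 moved from -1.56 to -2.40 and was called, which brought the calls to 17. mt-Co1, at 2031, 1573 and 1149.8 in IVG-NT day 6, did not overlap but missed the threshold, at -1.06 ± 0.52. mt-Atp8, at 18.4, 26.5 and 60.4 in IVG-NT, gave -2.28 ± 0.96 and was the only called gene whose groups did not overlap. mt-Ts2 had 2, 2 and 1 counts in IVG-NT and 577, 758 and 1 in IVG-NT day 6, and its other tRNA neighbours gave -6.23 ± 2.01 for mt-Th and -5.47 ± 2.32 for mt-Tl2. The remaining called tRNA genes, mt-Tf, mt-Ti, mt-Tq, mt-Tm, mt-Ts1, mt-Td, mt-Tk, mt-Tt and mt-Tp, ran from -5.48 for mt-Ti to -3.65 for mt-Tp. With IVG-NT day 6 replicates 1 and 2 left out 0 members were called and the median of the mRNA genes was 0.11. Between the rRNA-poor libraries 4 of 13 mRNA genes were lower at day 10, and between the rRNA-rich ones 13 were. Without IVG-NT replicate 1 the count was 9, and without IVG-NT day 6 replicate 3 it was 24. Summed theca and stroma markers were 3.10 to 7.09 CPM in IVG-NT against the 9.75 to 79.3 of IVG-NT day 6, granulosa markers 129.4 to 273 against 59.98 to 129.7, and macrophage markers 4.38 to 38.5 against 4.07 to 55.4, and their part was not tested.

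Whether the effect of NT-4 differed between day 10 and day 6 was tested as an interaction over the 4 culture groups, which uses the same libraries as the comparisons above. Only mt-Ts1 was called, lower, where 4.28% of all genes tested were called lower, at -5.23 ± 2.38. The smallest adjusted p of edgeR's quasi-likelihood test was 0.759, and 1 member was at an unadjusted p below 0.05. Leaving out 1 library gave 0 to 6 calls, with 0 for replicates 1 and 2 of IVG, each IVG-NT replicate, IVG day 6 replicate 1 and IVG-NT day 6 replicate 2, and 6 for IVG-NT day 6 replicate 3. The call of mt-Ts1 was lost in 11 of the 12 fits without 1 library, the exception being the fit without IVG-NT day 6 replicate 3. With the replicate as a block no member was called, and without IVG-NT day 6 replicates 1 and 2 the value of mt-Ts1 turned to 1.40 and 8 members were called, all higher.

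The tRNA genes had far fewer counts than the longer genes, with 735 to 6444 counts in all 22 together. Their median counts over the 15 libraries ran from 2 for mt-Ts2 to 218 for mt-Tl1, and mt-Tl1, mt-Tq at 147 and mt-Tm at 133 were the 3 highest. The 7 genes above 10 counts in every library were mt-Tl1, mt-Ti, mt-Tq, mt-Tm, mt-Tn, mt-Tk and mt-Te. mt-Tf, mt-Tv and mt-Tw had 0 counts in 1 library each. The adjoining mt-Th, mt-Ts2 and mt-Tl2, whose sequences are given above, together held 41.1% and 39.5% of tRNA gene counts in IVG-NT day 6 replicates 1 and 2, 22.5% in IVG day 6 replicate 2, 20.7% in IVV replicate 3 and 1.497% to 12.2% in the other 11 libraries. mt-Ts2 had 577, 758 and 1 counts in IVG-NT day 6, 2, 219 and 3 in IVG day 6 and 1, 67 and 6 in IVV, and 1 to 8 in the day 10 culture libraries. In the same 4 libraries mt-Ts2 had over 60 counts, and in the other 11 at most 8. mt-Tl1 behaved differently, with 2839, 1278 and 235 counts in IVG day 6, 247, 284 and 37 in IVG, 483, 375 and 33 in IVG-NT, 139, 218 and 97 in IVG-NT day 6 and 61, 182 and 64 in IVV. It was called lower in IVG against IVG day 6, at -3.61 ± 1.56, together with mt-Ti at -3.16 ± 1.28, mt-Tm at -2.55 ± 1.12 and mt-Ts2, whose counts were 2, 2 and 8 in IVG. mt-Ti and mt-Tm did not overlap between those groups, and mt-Ts2 rested on IVG day 6 replicate 2, without which its log2 fold change was 0.50. Mature tRNAs carry no poly(A) tail, and several tRNA genes overlap a neighbour by 1 to 3 bases, so what kind of RNA these counts stand for was not tested.

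**Figure D5:**
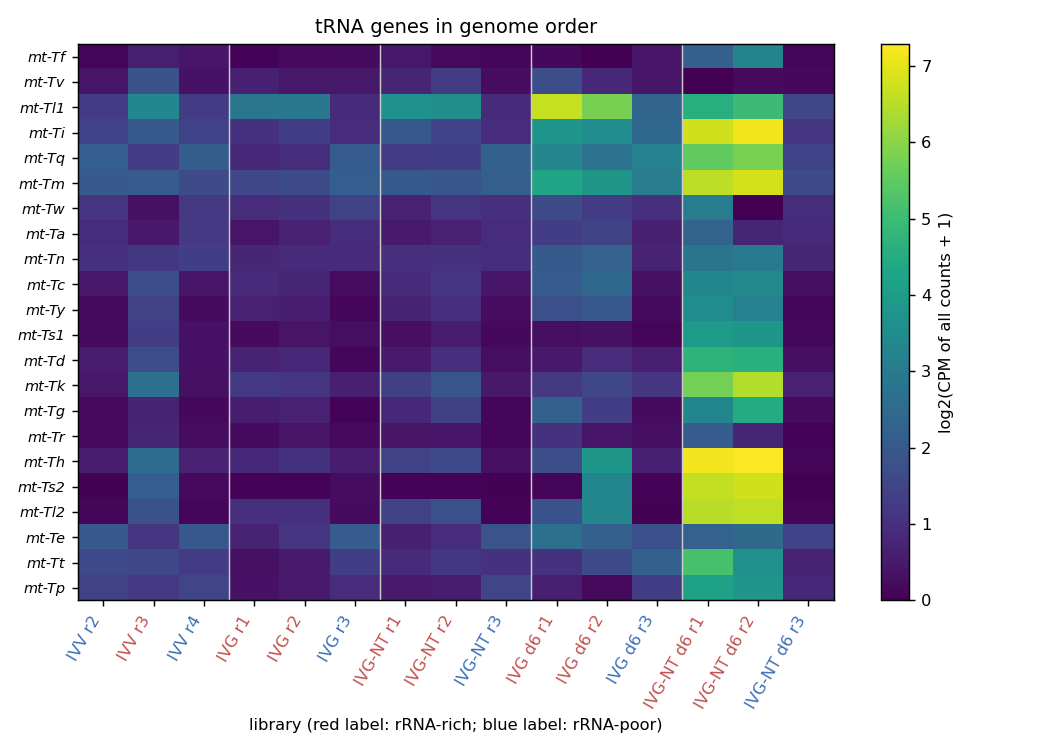
Colours give log2(CPM of all counts + 1) for the 22 tRNA genes (rows, in genome order) in the 15 libraries (columns; red names rRNA-rich, blue names rRNA-poor). IVG-NT day 6 replicates 1 and 2 are bright across many rows, led by mt-Th at 142 and 155 CPM, and mt-Tl1 is bright in IVG day 6 replicates 1 and 2.

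Nuclear genes encode the proteins that copy, read, cut and tail the mitochondrial genome. A list of 47 names of such genes and of their upstream regulators, in which Fastkd4 and Tbrg4 stand for the same gene, had 45 names in the files, of which 43 were tested. In IVG against IVG day 6, 1 of the 43 was called, lower, where 1.21% of all genes tested were: Tfb1m, a methyltransferase that modifies the small mitochondrial rRNA, at -1.94 ± 0.82. The median of the 43 was -0.08. There Tfam, which packs mitochondrial DNA and starts its transcription, gave -0.78 ± 1.20, the mitochondrial RNA polymerase Polrmt 0.70 ± 1.24, the DNA polymerase Polg -0.67 ± 1.47 and Lrpprc, which steadies mitochondrial mRNAs, -0.55 ± 0.75. None of these 4 was called in any comparison. In IVG-NT day 6 against IVG day 6 the RNA-binding protein gene Grsf1 was the 1 gene of the list called, lower, where 4.83% of all genes tested were, at -2.04 ± 0.83. In the interaction it was again the 1 called, higher, where 2.09% of all genes tested were, at 2.51 ± 1.14. Tfam gave -2.40 ± 1.26 and Polg -2.86 ± 1.57 at day 6, and the median of the 43 was -0.44 against -0.27 over all genes. In the other 4 comparisons 0 of the 43 were called, with medians from 0.03 to 0.17. In IVG-NT against IVG, Tfam gave -0.42 ± 1.20, Polrmt 0.17 ± 1.24, Polg 0.39 ± 1.46 and Lrpprc -0.20 ± 0.75.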

How the data were processed

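After trimming adaptors and bases of low quality, the authors aligned reads to mm10 with HISAT2, as far as their methods and processing notes say, and deposited raw counts per Ensembl gene for each of the 15 libraries. The counting tool, its strand setting and its annotation release are not given in the sources used here. A table of the whole series that repeats these counts was not used. Counts were taken as deposited, with no row left out of the library sizes, and Ensembl IDs were matched to GENCODE vM21 symbols (99.5% matched).

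Members and gene lists were chosen with earlier results of these data known. Each library was assigned to its group from its labels. edgeR 4.0.16 (R 4.3.3) was fitted with TMM scaling, a filter on low counts (minimum count 10) and 1 mean for each of the 5 groups over all 15 libraries, and each comparison was a quasi-likelihood test. Calls needed an absolute log2 fold change above 1 and an unadjusted p below 0.05, and p-values were adjusted by the Benjamini-Hochberg method over 21009 genes. All 37 members passed the filter. Every mRNA and rRNA gene was described by library, tRNA genes by range, and fold changes were given for the members called, or for the lowest and highest where none was called. Normalized CPM used TMM-scaled library sizes. Nuclear copies were found by matching member transcripts to GENCODE vM21 transcripts with blastn 2.17.0 (at least 99% identity over 200 bases). The code was tested on simulated data.

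Alternatives were DESeq2 1.42.0 (its test, and its size factors in edgeR), no filter, removal of nuclear rRNA genes, scaling on nuclear protein-coding genes, a replicate block, the kind of library as a covariate, rRNA-rich libraries only, fits of 2 groups, and each library left out. Summing the copies, leaving out both shallow IVG-NT day 6 libraries and refits of the interaction were chosen after seeing the data. As a check of pairing, deviations of same-numbered libraries correlated at 0.37 to 0.73 in IVG-NT against IVG and 0.15 to 0.54 in IVG against IVG day 6. The numbers of the titles were taken to pair groups where every pair was over 0.1. That held for these comparisons and not for the others. This cutoff was applied to these same data, and IVG-NT day 6 against IVG day 6 missed it through replicate 1, at 0.083. By the methods of the study, culture experiments of all groups ran in parallel. Other culture groups may therefore share experiments too, and the main fit took no pairing into account. In every culture group replicates 1 and 2 were rRNA-rich and replicate 3 rRNA-poor. The check therefore cannot tell a shared experiment from a shared kind of library. Depth was 5954262 to 55593251 counts a library. Amplified reads carried no molecular identifiers, so counts are not molecules, and with 6 oocytes pooled in each library p-values measure the spread between pools.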

Additional observations from a re-analysis of the deposited data

Results flagged for a closer look

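mt-Ts1 was called in the interaction of NT-4 with day over the 4 culture groups, 1 of 37 members where 4.28% of all genes tested were called in that direction, with a log2 value of -5.23 ± 2.38 (SE; the smallest adjusted p of edgeR's quasi-likelihood test over the members was 0.759). Its counts were 87, 97 and 6 in IVG-NT day 6 and 6, 6 and 4 in IVG day 6, and the value was 1.40 without the first 2 of these libraries. The call was lost in 11 of the 12 fits without 1 library and with the replicate as a block, and none of the members passed after adjustment.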

How the results depend on the processing

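The median of the mRNA genes kept its sign over every alternative run in IVG against IVG day 6 (-2.18 to -1.55), IVG-NT against IVG (0.51 to 0.84) and IVG against IVV (-1.63 to -0.14). It changed sign in IVG-NT against IVV (-1.16 to 0.48), IVG-NT day 6 against IVG day 6 (-1.50 to 1.24) and IVG-NT against IVG-NT day 6 (-2.08 to 0.11). DESeq2 size factors moved the median of all genes from -0.20 to -0.39 in IVG against IVV, from -0.19 to -0.36 in IVG-NT against IVV, from -0.27 to 0.00 in IVG-NT day 6 against IVG day 6 and from 0.40 to 0.04 in IVG-NT against IVG-NT day 6.

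The number of members called moved as follows, and the cause was not tested. The share of all genes called is given only for the main fit and for DESeq2 after adjustment. A change in these counts therefore cannot be set against the change over all genes. Without IVG-NT day 6 replicate 3 the median of all genes was -1.13 in IVG-NT day 6 against IVG day 6. It was 1.27 in IVG-NT against IVG-NT day 6. In IVG against IVV it was 0 with the replicate block, 5 with copies summed, 5 with DESeq2 and 0 to 3 with 1 library left out. In IVG-NT against IVV it was 1 with no filter, 3 in rRNA-rich libraries, 2 in a fit of the 2 groups, 1 with copies summed, 1 with DESeq2 and 0 to 2 with 1 library left out. In IVG-NT against IVG it was 0 to 1 with 1 library left out. In IVG-NT day 6 against IVG day 6 it was 5 with the replicate block, 18 in rRNA-rich libraries, 4 in a fit of the 2 groups, 4 without both shallow libraries, 15 with DESeq2 and 3 to 15 with 1 library left out. In IVG against IVG day 6 it was 9 with the replicate block and 3 to 10 with 1 library left out. In IVG-NT against IVG-NT day 6 it was 9 in a fit of the 2 groups, 0 without both shallow libraries, 25 with DESeq2 and 9 to 24 with 1 library left out. In the interaction it was 0 with the replicate block, 6 with the kind of library as covariate, 8 without both shallow libraries and 0 to 6 with 1 library left out. The replicate block moved no other count of calls.

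Of the values of called genes under alternatives, 147 lost the call, 25 changed direction and the others kept both. Without IVG-NT day 6 replicates 1 and 2, which leaves 1 library assumed to vary like the other groups, log2 fold changes in IVG-NT day 6 against IVG day 6 were -1.74 for mt-Td, -0.63 for mt-Tf, -6.14 for mt-Th, -3.26 for mt-Ti, -1.56 for mt-Tk, -2.84 for mt-Tm, -0.0099 for mt-Tp, -0.85 for mt-Ts1 and -2.01 for mt-Tt. In IVG-NT against IVG-NT day 6 they were then 0.17 for mt-Nd2, 0.26 for mt-Nd4, 1.66 for mt-Td, 1.39 for mt-Tf, 4.06 for mt-Th, 1.02 for mt-Ti, 1.74 for mt-Tk, 4.14 for mt-Tl2, 0.84 for mt-Tm, 0.49 for mt-Tp, 0.61 for mt-Tq, 1.52 for mt-Ts1, 1.34 for mt-Ts2 and 0.96 for mt-Tt, and the interaction of mt-Ts1 was 1.40. mt-Ts2 in IVG against IVG day 6 ran from -6.12 to 0.50 with 1 library left out. Low counts limit the tRNA genes most, since 15 of the 22 had 10 or fewer counts in at least 1 library. The number of members under 10 counts was 9 in replicate 3 of IVG, IVG-NT and IVG-NT day 6, and 1 and 4 in the 2 shallowest libraries.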
